A study of Zea mays with 6 samples.

Results

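The transcripts described here are the rows of a maize (Zea mays) leaf RNA-seq table whose gene identifiers start with GRMZM5G. They number 174 of 44320 rows, and the other 44146 rows carry identifiers of the Zm00001d form. The 174 rows were chosen by identifier alone and were taken, on that form, as the plastid and mitochondrial genome genes of the annotation. That placement could not be checked against a genome. None of the 174 identifiers (0 matches) was found among the 49888 maize genes that a RefSeq table of the B73 assembly lists, which includes 158 plastid and 214 mitochondrial genes. The same held for every row of the leaf table (0 matches), so the miss is not particular to the GRMZM5G rows. In the RefSeq list, 1228 genes carry an older identifier of the same GRMZM5G form. Of them, 1228 lie on numbered chromosomes and 0 on an organelle genome, so in that list the form does not mark an organelle gene. None of the 174 rows is among these genes, so the list cannot decide the placement of the 174 rows either way. The genes are therefore given as GRMZM5G rows, by identifier, with no gene name or role.

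The study compared leaves of KO1, a line labelled as a knockout of the gibberellin 20-oxidase gene ZmGA20ox3, with leaves of the wild type (WT), with 3 libraries in each group. Leaves were harvested at the V8 vegetative stage under normal growth, and the labels call the 3 libraries of a group biological replicates without saying how many plants each held. The cultivar is labelled KN5585 for both groups but written KN5855 for the WT line in the growth description. KO1 is 1 edited line, so an effect of the edit and any other feature of that line cannot be told apart.

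As background, the plastid genome of plants encodes part of the photosystems, of the cytochrome b6f complex, of the ATP synthase and of the NAD(P)H dehydrogenase, the large subunit of Rubisco, a plastid RNA polymerase, and ribosomal proteins, ribosomal RNAs and transfer RNAs. The mitochondrial genome encodes a smaller set of respiratory chain subunits with its own ribosomal and transfer RNAs. Organelle transcripts are made as long units that are then cut, spliced and edited, and in plants they mostly lack the long poly(A) tail of nuclear messenger RNA. The labels give total RNA as the molecule. Whether poly(A) RNA was selected or ribosomal RNA removed is not stated there.

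The GRMZM5G rows carried very little of the measured leaf transcript pool. Values are TPM, a length-scaled abundance that sums to 1000000 in each library, so sequencing depth is unknown; where 3 values are given for a genotype, they follow replicates 1 to 3. The 174 rows made up 0.393% of all rows and held 0.0302%, 0.0305% and 0.0214% of the TPM in the KO1 leaves, and 0.0174%, 0.00997% and 0.0174% in the WT leaves. A GRMZM5G row averaged 1.22 TPM over the 6 libraries, against 22.6 TPM for a Zm00001d row. The highest single value in any GRMZM5G row was 72.1 TPM.

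Summed over the 174 rows, the level was higher in KO1. The sum was 302, 305 and 214 TPM in KO1 leaves, and 174, 99.7 and 174 TPM in WT leaves. The lowest KO1 library exceeded the highest WT library. KO1 averaged 274 ± 51.7 TPM and WT averaged 149 ± 43.1 TPM (SD, n = 3 each), a ratio of 1.83, with an exact two-sided permutation p of 0.1, below which this design cannot go. The number of rows of the whole table at 1 TPM or more moved the same way, with 20986, 21115 and 20697 in the KO1 libraries and 19282, 20537 and 20227 in the WT libraries, and its part in the sum was not tested. A bulk leaf library cannot tell less RNA per cell from fewer cells of one kind.

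**Figure D1:**
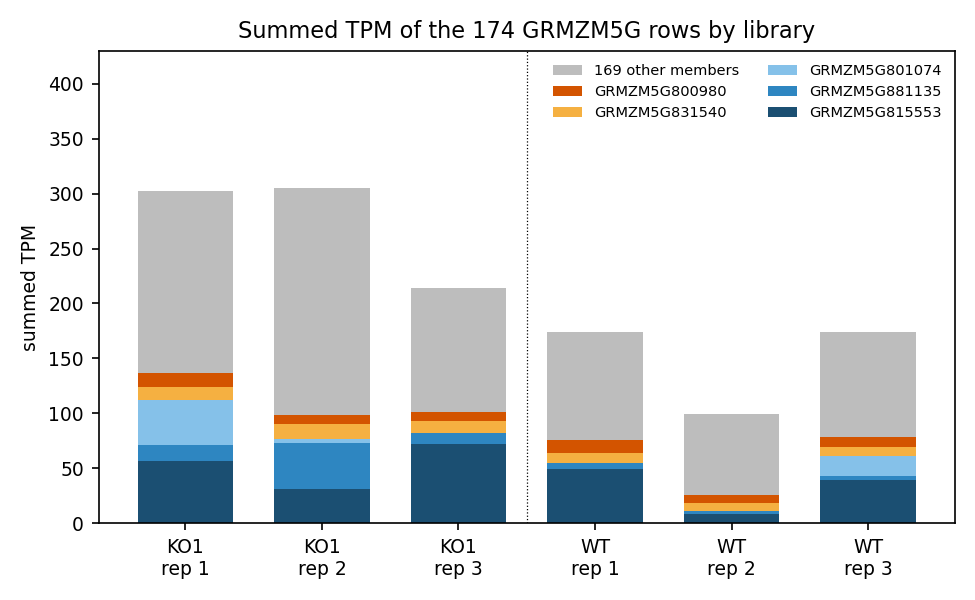
Summed TPM of the 174 GRMZM5G rows in each library (vertical axis, TPM, from 0), with the 5 rows of highest mean as coloured segments and the 169 others in grey; n = 1 library per bar. The KO1 bars reach 302, 305 and 214 TPM and the WT bars 174, 99.7 and 174 TPM.

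The higher sum did not rest on its leading row or on the 1 row that passed the test described further on. Without GRMZM5G815553, the row of highest mean, the sum was 246, 274 and 142 TPM in KO1 and 125, 91.5 and 134 TPM in WT, again with the groups apart. Without the 5 leading rows it averaged 162 ± 46.7 TPM in KO1 and 89.5 ± 13.6 TPM in WT (SD, n = 3 each; exact permutation p = 0.1). Without GRMZM5G881135, the row past the threshold, it averaged 251 ± 42.7 TPM in KO1 and 146 ± 42.2 TPM in WT (SD, n = 3 each; exact permutation p = 0.1). After quantile normalization of the libraries the groups overlapped, at 274, 282 and 209 TPM in KO1 and 213, 96.1 and 185 TPM in WT (exact permutation p = 0.2).

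A few rows carried a large part of the sum, and their share did not differ between genotypes beyond the spread. The 5 leading rows took 45.2%, 32.4% and 47.2% of the sum in KO1 replicates 1 to 3, and 43.4%, 25.9% and 44.9% in WT replicates 1 to 3. The groups overlapped, at 41.6% ± 8.01 in KO1 and 38.1% ± 10.5 in WT (SD, n = 3 each; exact permutation p = 0.5). In both groups replicate 2 was the library with the lowest share. The 10 leading rows took 60.1% ± 10.3 of the sum in KO1 and 55.7% ± 8.79 in WT (SD, n = 3 each; exact permutation p = 0.5). Rows with a mean of at least 1 TPM, which number 39 of the 174, held 94.7% ± 2.11 in KO1 and 92.2% ± 6.39 in WT (SD, n = 3 each).

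GRMZM5G815553 was the most abundant row by mean, with 42.7 TPM over the 6 libraries, and ranked 3915 in the whole table. It had 56.2, 30.9 and 72.1 TPM in KO1 leaves, and 49.5, 8.15 and 39.6 TPM in WT leaves. WT replicate 2 stood lowest, and KO1 replicate 2 lay below WT replicates 1 and 3, so the groups overlapped. The difference, KO1 minus WT, was 0.94 ± 0.67 (SE) on the log2(TPM + 1) scale, with a limma adjusted p of 0.362. Its share of the summed GRMZM5G level ran from 10.1% to 33.7% in KO1 and from 8.18% to 28.4% in WT.

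GRMZM5G881135 was second by mean and the only one of the tested GRMZM5G rows to pass the threshold, an adjusted p under 0.05. It had 15.4, 41.9 and 10.1 TPM in KO1 leaves, and 5.23, 2.73 and 3.09 TPM in WT leaves. Each KO1 library exceeded each WT library, and KO1 replicate 2 was the highest. The mean was 6.10 times as high in KO1, with a difference of 2.12 ± 0.51 (SE) on the log2(TPM + 1) scale and a limma adjusted p of 0.0375. Without KO1 replicate 2 the difference was 1.56 (limma adjusted p = 0.0436). Among the fits that left out a library or changed the scaling or the filter, it no longer passed without WT replicate 1, 2 or 3 (limma adjusted p = 0.0708, 0.0758 and 0.126), without KO1 replicate 1 (limma adjusted p = 0.0832), after quantile normalization (limma adjusted p = 0.0537) or with no filter beyond a value above 0 (limma adjusted p = 0.0601). In the main fit 3301 rows of the table passed. Without WT replicate 1, 2 or 3 this count was 1314, 2929 and 778, and without KO1 replicate 1 it was 1482. In the same fits the difference of GRMZM5G881135 was 2.34, 1.97, 2.04 and 2.26. Its share of the summed level was 5.10%, 13.7% and 4.72% in KO1, and 3.0%, 2.74% and 1.77% in WT.

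GRMZM5G801074, next by mean, owed its rank to a pair of libraries of different genotype. It had 40.1, 3.55 and 0 TPM in KO1 leaves, and 0, 0 and 18.1 TPM in WT leaves. Its values at 0 and its highest values occurred within the same group in both genotypes. In a table without counts a value of 0 can be a failed estimate, so it is given only as listed at 0. The difference was 1.10 ± 1.64 (SE) on the log2(TPM + 1) scale (limma adjusted p = 0.671), and it was -0.32 without KO1 replicate 1.

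The next rows were steadier among replicates. GRMZM5G831540 had 11.9, 13.9 and 10.7 TPM in KO1 leaves, and 9.02, 7.45 and 8.72 TPM in WT. Its groups did not overlap, and its KO1 mean was 1.45 times the WT mean (limma adjusted p = 0.104). GRMZM5G800980 had 12.8, 8.61 and 8.08 TPM in KO1 leaves, and 11.9, 7.50 and 8.67 TPM in WT. Its groups overlapped almost wholly, with a difference of 0.06 ± 0.25 (SE) on the log2(TPM + 1) scale (limma adjusted p = 0.88). GRMZM5G879235 had 16.1, 8.37 and 8.97 TPM in KO1 leaves, and 10.2, 4.63 and 5.73 TPM in WT, with replicate 1 highest in both groups (limma adjusted p = 0.243).

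The remaining 4 of the 10 leading rows had groups that did not overlap, yet none passed the threshold. GRMZM5G801958 had 11.8, 19.0 and 8.41 TPM in KO1 leaves, and 5.80, 4.75 and 6.58 TPM in WT leaves (limma adjusted p = 0.0663). GRMZM5G856777 had 10.3, 8.67 and 7.30 TPM in KO1 leaves, and 5.90, 3.76 and 4.71 TPM in WT leaves (limma adjusted p = 0.062). The KO1 means of these rows were 2.29 and 1.83 times the WT means. GRMZM5G858556 had 12.8, 6.90 and 7.10 TPM in KO1 leaves, and 5.92, 2.92 and 3.98 TPM in WT leaves (limma adjusted p = 0.0969). GRMZM5G800096 had 12.3, 5.04 and 8.38 TPM in KO1 leaves, and 4.53, 3.56 and 4.35 TPM in WT leaves (limma adjusted p = 0.112). The last of these had KO1 replicate 2 close to the WT values, and without that library its adjusted p was 0.0468 (limma).

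**Figure D2:**
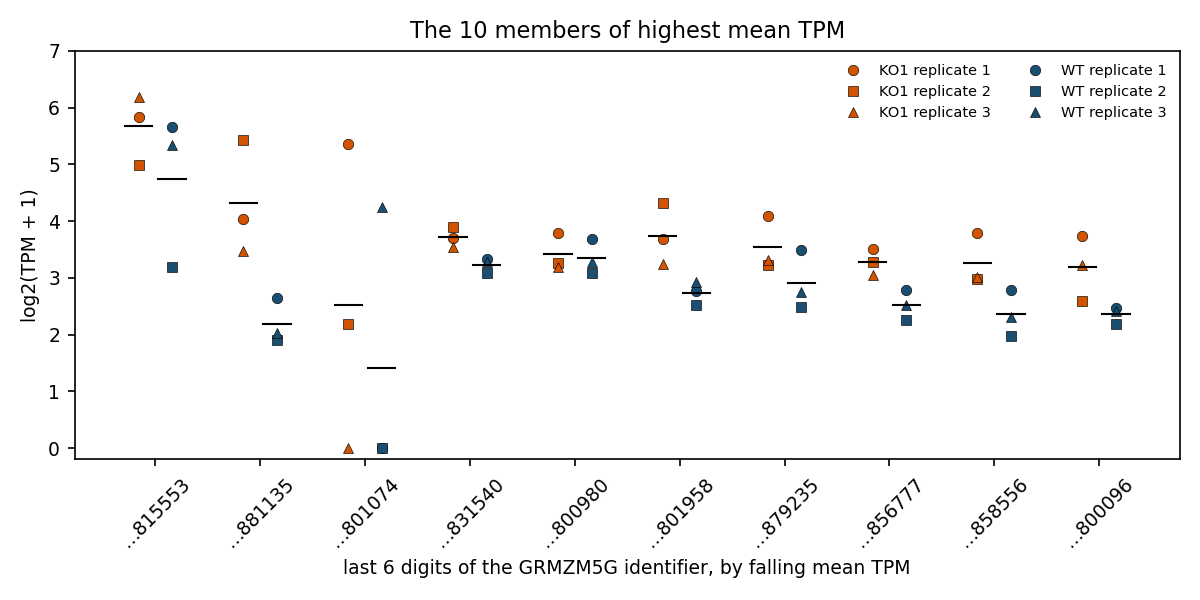
Level of the 10 GRMZM5G rows of highest mean, on the log2(TPM + 1) scale (vertical axis), with KO1 libraries in orange at the left of each pair and WT libraries in blue at the right; symbols mark replicates and lines the means of 3 libraries. GRMZM5G881135 shows the widest gap between the group means, and GRMZM5G801074 has libraries listed at 0 in both groups.

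A row was tested where at least 3 of the 6 libraries reached 1 TPM, which held for 35 of the 174 rows and 20990 rows of the table. Of these 35, 19 reached 1 TPM in all 6 libraries. Through KO1 libraries alone 1 row passed this filter, GRMZM5G836994, with 1.20, 3.63 and 1.08 TPM in KO1 leaves, and 0.65, 0.82 and 0.78 TPM in WT leaves, and 0 rows passed through WT libraries alone. Past the threshold 1 row was higher in KO1 and 0 were lower, against 15.7% of all tested rows past it, 9.87% higher and 5.86% lower. As a share of the 35 that is 2.86%. Without adjustment, 11 of the 35 rows (31.4%) had a limma p under 0.05, against 34.3% of all tested rows. Of the 11, 10 were higher and 1 lower in KO1. Of the 7203 such rows of the table, 4231 were higher and 2972 lower in KO1.

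Most tested GRMZM5G rows lay on the KO1 side. The difference was above 0 for 29 of the 35 and below 0 for 6, with a median of 0.64 on the log2(TPM + 1) scale, while it was above 0 for 53.1% of all tested rows, with a median of 0.05. Among the rows at 1 TPM or more in all 6 libraries, 17 of 19 lay above 0 with a median of 0.60, against 51.4% and a median of 0.02 for all rows of that kind. Quantile normalization moved the median of all tested rows to -0.09 and left 25 of the 35 above 0, with a median of 0.41. Each KO1 library lay above each WT library for 11 of the 35, or 31.4%, against 22.9% of all tested rows. The reverse held for 0 of the 35, against 17.6% of all tested rows. The 11 include GRMZM5G836994, which passed the filter through KO1 libraries alone. Of the 35, 6 reached 1 TPM in all KO1 and not in all WT libraries, and 1 the other way. The count of groups apart was not repeated on the 19 rows. Rows measured in the same libraries are not independent of each other, so these counts are descriptions.

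**Figure D3:**
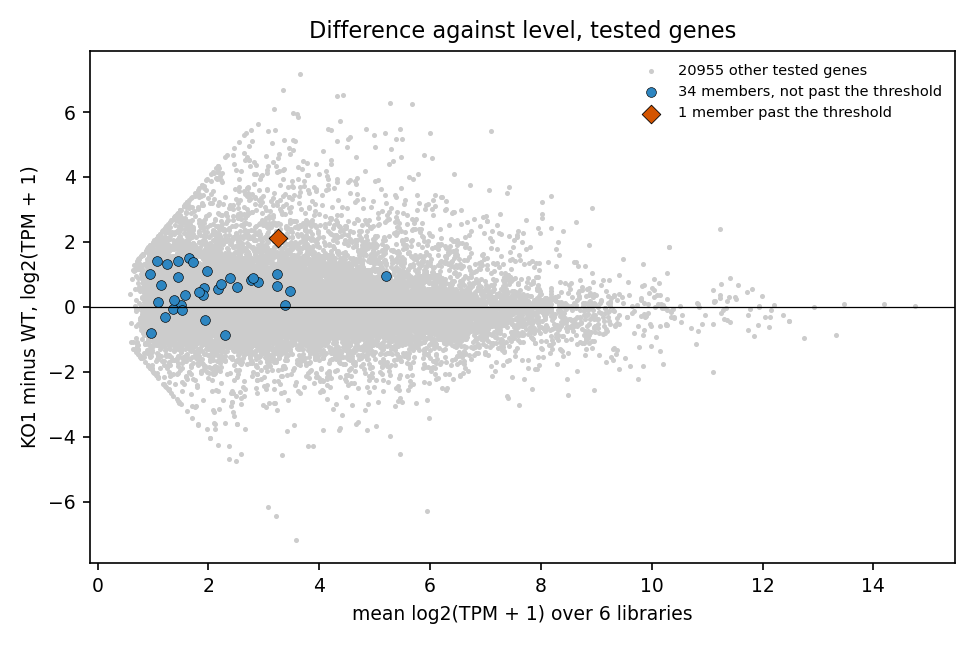
Difference between KO1 and WT (vertical axis, KO1 minus WT on the log2(TPM + 1) scale) against mean level over the 6 libraries (horizontal axis, same scale) for the 35 tested GRMZM5G rows (blue, and orange where past the threshold) and the 20955 other tested rows (grey). 29 of the 35 lie above 0, all within the range of the grey points.

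By size, the differences after that of GRMZM5G881135 came from low rows with wide spread. GRMZM5G815453 had 4.17, 9.67 and 1.68 TPM in KO1 leaves, and 0, 1.06 and 2.19 TPM in WT, a difference of 1.5 ± 0.61 (SE) on the log2(TPM + 1) scale (limma adjusted p = 0.138). GRMZM5G853305 had 3.43, 3.72 and 3.25 TPM in KO1 leaves, and 0, 0 and 3.59 TPM in WT leaves (limma adjusted p = 0.147). Where it was above 0 its level was nearly the same in both groups, and without WT replicate 3 it passed the threshold (limma adjusted p = 0.0161). GRMZM5G866223 had 2.56, 6.09 and 0.61 TPM in KO1 leaves, and 0, 0 and 1.13 TPM in WT leaves (limma adjusted p = 0.143). GRMZM5G844074 had 0, 12.0 and 10.5 TPM in KO1 leaves, and 0, 0 and 7.73 TPM in WT leaves (limma adjusted p = 0.477), so both groups held a library at 0 beside one above 7 TPM.

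On the WT side, no row passed the threshold. GRMZM5G884960 showed the lowest difference, with 4.36, 2.19 and 1.81 TPM in KO1 leaves, and 6.37, 3.58 and 7.77 TPM in WT (-0.87 ± 0.35 (SE) on the log2(TPM + 1) scale; limma adjusted p = 0.133). KO1 replicate 1 lay above WT replicate 2, so the groups overlapped. GRMZM5G892769 had 2.26, 1.68 and 3.24 TPM in KO1 leaves, and 3.77, 3.28 and 3.12 TPM in WT leaves (limma adjusted p = 0.278). GRMZM5G825253, GRMZM5G845244 and GRMZM5G844628 had differences of -0.81, -0.31 and -0.10 on the same scale, with limma adjusted p from 0.482 to 0.931, and at least 1 KO1 library listed at 0 in each.

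KO1 replicate 2 stood apart from the other KO1 libraries, and between it and them the GRMZM5G rows did not scale up and down together. Among the 35 tested rows, 17 had their highest value of all 6 libraries in KO1 replicate 2, 10 in KO1 replicate 1 and 3 in KO1 replicate 3, against 3, 1 and 1 in WT replicates 1 to 3. As shares, KO1 replicate 2 was highest for 48.6% of these rows and for 24.0% of all tested rows. In 7 of the 35 rows KO1 replicate 2 was at least 2 times every other library, which is 20% against 3.76% of all tested rows. This library stood out in the whole table too, with 789 such rows, against 32 to 243 in each other library. In 2 of the 35 rows every other library was at least 2 times KO1 replicate 2, or 5.71% against 3.89% of all tested rows. These are GRMZM5G844628 and GRMZM5G845244, each listed at 0 in KO1 replicate 2, where any values above 0 elsewhere meet the measure. On this low side WT replicate 1 had more rows of the table, 1128 against 816 for KO1 replicate 2. The 7 rows in which KO1 replicate 2 was at least 2 times every other library include GRMZM5G881135, GRMZM5G815453 and GRMZM5G866223. They also include GRMZM5G815606, with 4.35, 12.4 and 1.94 TPM in KO1 leaves, and 3.06, 3.45 and 1.70 TPM in WT, and GRMZM5G864407, with 2.02, 5.01 and 1.94 TPM in KO1 leaves, and 1.13, 0.63 and 0 TPM in WT. The other two of the 7 are GRMZM5G836994 and GRMZM5G830210; these rows were named after their values were seen.

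Other rows went the opposite way between the same libraries. Over the 19 rows at 1 TPM or more everywhere, the ratio of KO1 replicate 2 to KO1 replicate 1 ran from 0.267 to 2.84, with a median of 0.743 and 7 rows above 1. For all 17378 rows of that kind the median ratio was 0.909, with quartiles of 0.719 and 1.17, and 39.2% lay above 1. Most of the 19 rows moved together between KO1 replicates 3 and 1. That ratio was above 1 in 2 of the 19, with a median of 0.648, against 0.923 for all rows of that kind. The ratio of WT replicate 2 to WT replicate 1 ran from 0.163 to 1.13 over the 19 rows, with 2 rows above 1. Its median was 0.641, against a median of 1.07 for all rows of that kind. So WT replicate 2 was low for these rows, though not for the table at large.

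Replicates of a group differed more in the GRMZM5G rows than in the typical tested row. Taken per row on the log2(TPM + 1) scale, the SD among replicates had a median of 0.58 in KO1 and 0.38 in WT over the 35 rows, against 0.29 in KO1 and 0.24 in WT over all 20990. Among rows with a mean under 10 TPM it was 0.57 in KO1 and 0.36 in WT for 31 GRMZM5G rows, and 0.33 in KO1 and 0.28 in WT for 9113 rows of the table. These medians were not tested against each other.

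**Figure D4:**
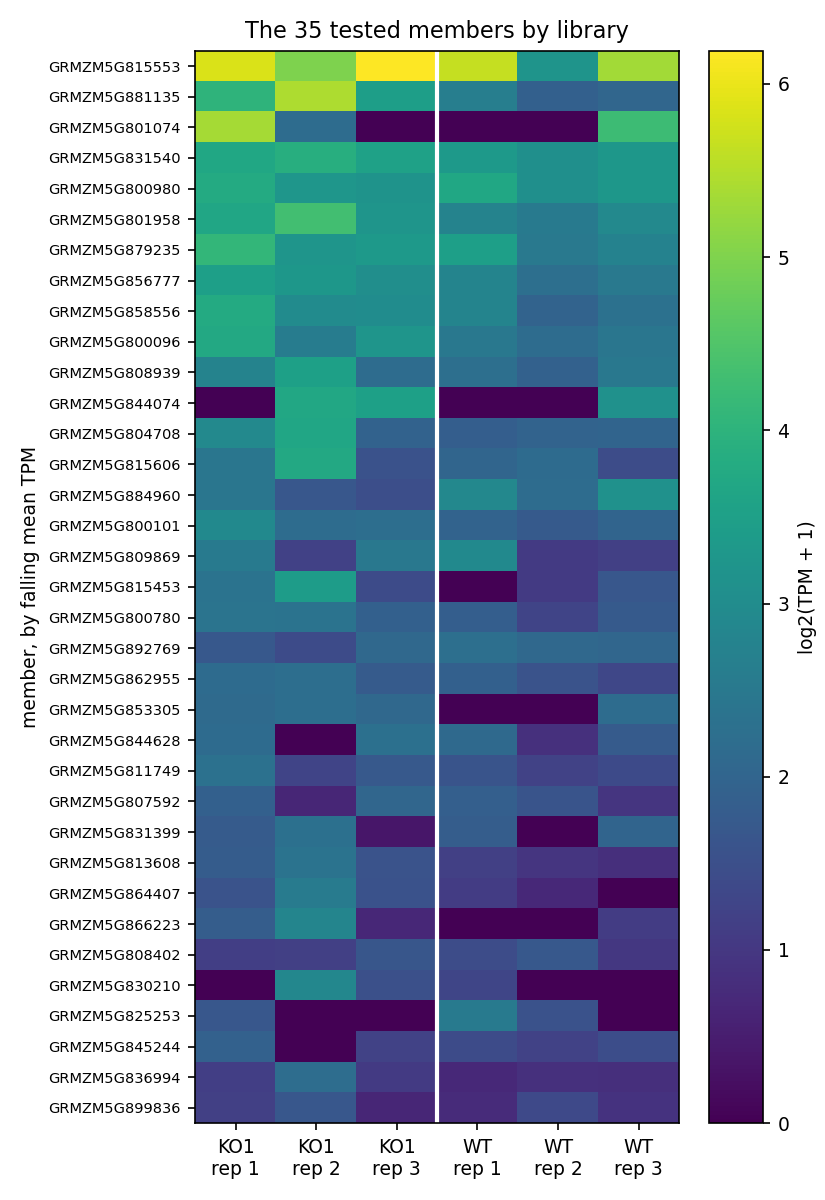
Level of the 35 tested GRMZM5G rows (1 per line, by falling mean) in the 3 KO1 libraries at the left and the 3 WT libraries at the right, as log2(TPM + 1) from 0 (dark) upwards. KO1 replicate 2 is highest for 17 of the 35 rows, and several rows are dark (listed at 0) in some libraries of a group and not in others.

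Many GRMZM5G rows were listed at 0. In all 6 libraries 77 of the 174 were at 0, or 44.3%, against 30.7% of all rows. Only 30 rows, 17.2%, were above 0 in every library, against 50.7% of all rows. By library, 110, 96 and 118 GRMZM5G rows were at 0 in KO1 replicates 1 to 3, and 115, 115 and 111 in WT replicates 1 to 3. The number above 0 was 66.0 ± 11.1 in KO1 and 60.3 ± 2.31 in WT (SD, n = 3 each; exact permutation p = 0.6), and the groups overlapped, with the fewest of all in KO1 replicate 3. Without KO1 replicate 2 the sign of that difference turned, to -0.33 rows. At 1 TPM or more the counts were 38, 41 and 32 in KO1 and 29, 30 and 30 in WT. The groups were apart (exact permutation p = 0.1). As shares these were 21.8%, 23.6% and 18.4% in KO1, and 16.7%, 17.2% and 17.2% in WT. Over all rows the shares were 47.4%, 47.6% and 46.7% in KO1, and 43.5%, 46.3% and 45.6% in WT, with the groups apart too (exact permutation p = 0.1). At 10 TPM or more the GRMZM5G counts were 11, 9 and 4 in KO1, and 3, 0 and 2 in WT, again with the groups apart. The shares over all rows at that level were not computed.

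**Figure D5:**
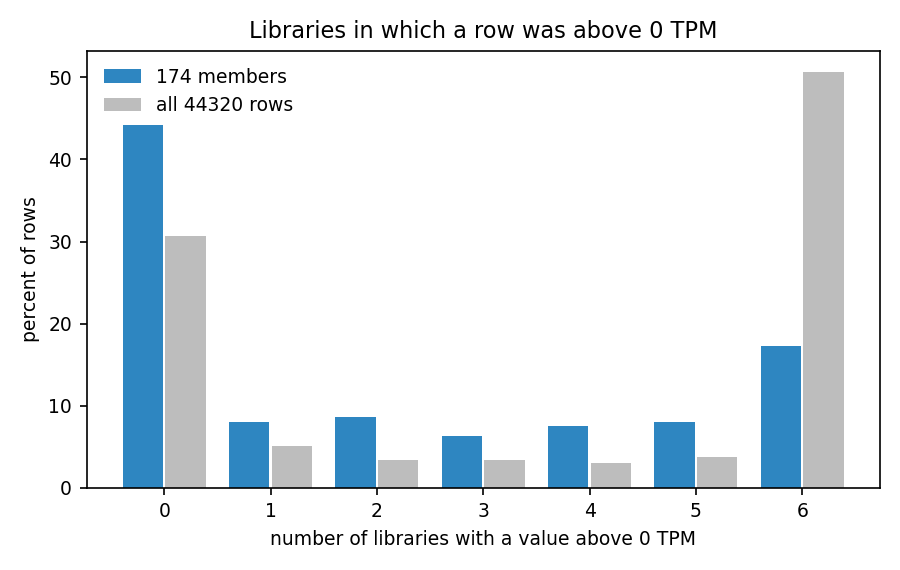
Percent of rows (vertical axis, from 0) by the number of libraries in which they were above 0 TPM (horizontal axis), for the 174 GRMZM5G rows (blue) and all 44320 rows (grey). The blue bars stand at 44.3% for 0 libraries and 17.2% for 6, and the grey bars at 30.7% and 50.7%.

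None of the zero patterns separated the genotypes. Of the 97 rows above 0 in at least 1 library, 82 were above 0 in both groups, 10 in KO1 libraries only and 5 in WT libraries only. As shares of the rows above 0 somewhere, these last counts are 10.3% and 5.15%, against 7.30% and 4.62% of the 30705 such rows of the table. The highest value among the 10 was 2.83 TPM, in GRMZM5G835775 in KO1 replicate 2, and among the 5 it was 2.66 TPM, in GRMZM5G845024 in WT replicate 2. No row (0 in each direction) was at 0 throughout 1 group and at 1 TPM or more throughout the other. Above 0 in a single library were 14 rows, of which 6 were so in KO1 replicate 2, or 42.9%, against 576 of 2246 such rows of the table, or 25.6%.

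Rows listed at 0 in 1 library and high in another library of the same group were more frequent than in the table. Of the 23 GRMZM5G rows that reached 5 TPM anywhere, 5 were also at 0 within the same group, or 21.7%, against 1.92% of the 17960 rows of the table that reached 5 TPM. These are GRMZM5G801074 and GRMZM5G844074, given above, with GRMZM5G830210, GRMZM5G855343 and GRMZM5G876913. The rows compared were not matched for level. A mean of 10 TPM or more held for 4 GRMZM5G rows and for 11888 rows of the table. How far the lower level of the GRMZM5G rows accounts for the higher percentage was not tested. GRMZM5G876913 had 0, 15.98 and 0 TPM in KO1 leaves, and 1.87, 0 and 0 TPM in WT, and did not reach the filter. GRMZM5G855343 had 10.5, 0 and 0 TPM in KO1 leaves, and 0, 0 and 4.67 TPM in WT, and did not reach it either. GRMZM5G830210 had 0, 6.30 and 1.83 TPM in KO1 leaves, and 1.45, 0 and 0 TPM in WT leaves (limma adjusted p = 0.373).

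The 139 rows outside the test comprised the 77 at 0 throughout and 62 at low levels. Of these 62, 17 reached 1 TPM in some library, with a highest value of 15.98 TPM, and 45 did not. Their highest value lay in KO1 replicate 2 for 34 rows, in KO1 replicate 1 for 9 and in KO1 replicate 3 for 7, against 1, 7 and 4 in WT replicates 1 to 3. Ties went to KO1, as for GRMZM5G889299, with 0.03 TPM in KO1 replicate 2 and in WT replicates 2 and 3. The mean was higher in KO1 for 46 of the 62 and lower for 15, which was not tested. The shares over all untested rows were not computed. The table leaned to KO1 too, with 4247 rows above 0 in more KO1 than WT libraries and 2804 in more WT than KO1 libraries.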

How the data were processed

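The authors deposited 1 table of TPM values with 2 decimals for 3 KO1 and 3 WT leaf libraries. RSEM, Bowtie2 and DESeq2 appear in the submitters' processing notes without version or role; the genome build, annotation and read filters were not given in the sources used here. Library depth cannot be read from TPM, so no counting interval or floor is given. No genome or sequence of these genes was used.

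All rows with at least 1 TPM in at least 3 of 6 libraries were fitted on log2(TPM + 1) with limma 3.58.1 (R 4.3.3), using a variance trend, a two-sided test and Benjamini-Hochberg adjustment over all 20990 rows at 0.05, and only GRMZM5G rows are given. The fit had no covariates. Single values per library were compared by exact two-sided permutation tests (scipy 1.17.1). Ratios are of mean TPM, for rows above 0 everywhere. Alternatives covered pseudocount, filter, scaling, variance model, library weights, replicate block and leaving out each library; that for non-overlapping rows was added after seeing the data.

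Rows given with values are the 10 of highest mean, those past the threshold, and the 5 largest differences in each direction; others named were chosen after their values were seen. Members and lists were chosen with earlier results of these data known. Lists of nuclear partner genes and of tissue markers could not be paired with identifiers, so they and the leaf label were not analysed here, nor was ZmGA20ox3.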

Additional observations from a re-analysis of the deposited data

How the results depend on the processing

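The count of 1 GRMZM5G row past the threshold was unchanged with both other pseudocounts, the lower filter, trimmed-mean scaling and a robust prior, and the row was GRMZM5G881135 in each. It was 0 with no filter (11 rows at an unadjusted limma p under 0.05), 0 after quantile normalization (4 rows at that p), 2 with no variance trend and 7 with library weights (8.53 for WT replicate 3), a setting that put 6838 rows in all past the threshold. Leaving out each library gave 0 to 3 rows (6 to 13 at that p). Without WT replicate 3 the 1 row was GRMZM5G853305. Over all rows the count past the threshold was 3301 in the main fit. It was 2445 with no filter, 3394 after quantile normalization, 3250 with no variance trend, and 778 to 2929 when libraries were left out. With a replicate block the count was 0 (11 at that p; GRMZM5G881135: limma adjusted p = 0.0549) and over all rows it was 2806. The numbers are no sign of shared origin, since deviations of same-numbered libraries correlated at -0.006, 0.09 and 0.02, and only in number 2 was each library the best match of the other.

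The difference in summed TPM (124) stayed above 0 in every alternative, from 90.3 after quantile normalization to 154 without KO1 replicate 3. That in rows above 0 (5.67) ran from -0.33 to 10.7 when libraries were left out, turning without KO1 replicate 2. That in the share of the 5 leading rows (3.52 percentage points) ran from -2.55 to 8.11, turning without WT replicate 2. The 11 rows with groups apart became 11 to 17, which leaving out a library favours by construction.

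Of 19 rows given by rule, 6 turned direction somewhere, none of them past the threshold there. With library weights these were GRMZM5G801074 (-1.46), GRMZM5G844074 (-0.43), GRMZM5G825253 (0.34) and GRMZM5G844628 (0.12), and after quantile normalization GRMZM5G800980 (-0.10). When libraries were left out, GRMZM5G801074 ran from -0.32 to 2.52, GRMZM5G800980 from -0.12 to 0.23, GRMZM5G845244 from -0.75 to 0.21 and GRMZM5G844628 from -0.50 to 0.64. The cause of these changes was not tested. Depth is unknown, so how far it limits values near 0 cannot be given.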

Other observations

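Among rows above 0, 10 GRMZM5G rows formed 5 pairs with equal values in all 6 libraries. The highest such pair was GRMZM5G866761 and GRMZM5G877173, each with 1.55, 0 and 0 TPM in KO1 leaves, and 0, 1.33 and 0 TPM in WT leaves, in the order of replicates 1 to 3. Counting each pair once changed the summed level little, to 273 ± 51.3 TPM in KO1 and 149 ± 43.8 TPM in WT (SD, n = 3 each). Equal values were not limited to these pairs. Among GRMZM5G rows above 0, 9 were equal in all 6 libraries to a row of the Zm00001d form.

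GRMZM5G801074 and GRMZM5G855343 were high in the same libraries, at nearly the same ratio. The first over the second was 3.82 in KO1 replicate 1 and 3.87 in WT replicate 3, the only libraries where the second was above 0. In KO1 replicate 2 the first had 3.55 TPM and the second was listed at 0. The pair was picked after its values were seen.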
